A study of Homo sapiens with 12 samples.

Results

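The genes described are 10 of the 61906 in the count tables, matched by symbol to the Ensembl identifiers of both tables. They are the autophagy receptors SQSTM1, OPTN, TAX1BP1, NBR1 and CALCOCO2, the mitophagy receptor BNIP3L, the ATG8 genes GABARAPL1 and MAP1LC3B, and the early-acting genes ULK1 and WIPI1. RNA was sequenced in MOLM-14, an established human acute myeloid leukemia line, in 2 experiments with 3 libraries in each of 4 groups. In the knockdown experiment, cells received a lentivirus carrying shRNA against the RNA helicase gene DDX5 (shDDX5) or a control shRNA (shControl) by spinoculation, and were taken 96 hours after infection. In the compound experiment, cells were held for 6 hours in 100 nM RX-5902, a compound known as acting on phosphorylated DDX5, or in 0.1% DMSO. Both shRNA groups were infected, both compound-experiment groups were not described as infected, and all 4 groups come from 1 cell line. The labels speak of a single DDX5-targeting shRNA group and do not give the number of hairpins.

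Macroautophagy encloses cytoplasm in a double membrane, the autophagosome, which then fuses with the lysosome. The ULK1 kinase complex starts the process, a lipid kinase marks the membrane with PI3P that WIPI proteins bind, and ATG8 proteins of the LC3 and GABARAP families are attached to the growing membrane. Receptors bridge ATG8 proteins and cargo such as ubiquitinated proteins or damaged mitochondria, and several of them, SQSTM1 above all, are themselves degraded with the cargo. RNA levels therefore do not give the amount of these proteins or the rate of autophagy, neither of which was measured here.

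Promoter sequence is shown for 4 of the genes whose RNA was higher in both experiments, each 250 bases before to 50 bases after an annotated transcription start. The letters come from RefSeq on GRCh38.p14, plus strand, and read 5′ to 3′. The SQSTM1 window is the last of 3 in the table (chr5:179820655-179820954), the GABARAPL1 window is its only one (chr12:10212627-10212926), the OPTN window is the first of 2 (chr10:13099832-13100131) and the MAP1LC3B window is its only one (chr16:87392086-87392385). Capitals mark a match to 1 of 5 motifs searched on both strands.
SQSTM1: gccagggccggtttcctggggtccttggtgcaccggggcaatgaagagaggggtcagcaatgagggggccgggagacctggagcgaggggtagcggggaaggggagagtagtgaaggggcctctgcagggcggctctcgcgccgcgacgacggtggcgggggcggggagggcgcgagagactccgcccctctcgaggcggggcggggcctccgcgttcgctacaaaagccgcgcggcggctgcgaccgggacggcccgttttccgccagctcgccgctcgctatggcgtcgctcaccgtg
GABARAPL1: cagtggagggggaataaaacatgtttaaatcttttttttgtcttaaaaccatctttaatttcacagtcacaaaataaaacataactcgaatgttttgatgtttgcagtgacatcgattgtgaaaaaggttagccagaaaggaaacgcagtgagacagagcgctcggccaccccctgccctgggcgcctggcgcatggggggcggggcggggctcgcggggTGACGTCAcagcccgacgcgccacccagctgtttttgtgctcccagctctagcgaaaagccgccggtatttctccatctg
OPTN: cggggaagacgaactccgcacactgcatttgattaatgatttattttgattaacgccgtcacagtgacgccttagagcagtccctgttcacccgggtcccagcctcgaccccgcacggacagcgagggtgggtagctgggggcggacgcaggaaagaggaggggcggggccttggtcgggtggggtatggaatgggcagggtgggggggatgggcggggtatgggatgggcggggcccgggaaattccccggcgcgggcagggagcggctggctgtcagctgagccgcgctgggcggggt
MAP1LC3B: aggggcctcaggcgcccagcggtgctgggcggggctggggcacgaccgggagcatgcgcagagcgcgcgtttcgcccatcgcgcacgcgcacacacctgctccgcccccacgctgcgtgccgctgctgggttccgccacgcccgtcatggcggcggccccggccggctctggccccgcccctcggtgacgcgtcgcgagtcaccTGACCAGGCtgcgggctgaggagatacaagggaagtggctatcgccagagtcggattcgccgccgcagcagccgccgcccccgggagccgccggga
The motifs were the E-box core CACGTG, the CLEAR element (that core with GT before it and AC after it) bound by TFEB and TFE3, the antioxidant response element core TGACNNNGC bound by NRF2, the FOXO core GTAAACA and the cAMP response element TGACGTCA. The last of them was added after the windows had been seen. Of 35116 promoter windows in the table, 7.26% held the E-box core, 0.353% the CLEAR element, 13.3% the antioxidant core, 3.42% the FOXO core and 1.85% the cAMP response element. Across the 14 windows of 9 of the genes, GABARAPL1 held TGACGTCA with its leftmost base at -30 from the start, and MAP1LC3B held TGACCAGGC at -46. CALCOCO2, whose window is not printed, held GTAAACA at -226 and the reverse-strand antioxidant core GCCCGGTCA at -129. The windows of SQSTM1, OPTN, TAX1BP1, NBR1, ULK1 and WIPI1 held none of the 5 sets of letters. BNIP3L was not matched in the table. These matches describe the letters of short windows and do not show binding. A window without a match does not show that a gene lacks such sites, since only exact letters in these windows were searched.

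The tables held raw read counts. Library totals lay between 17603589 and 19674098 for shDDX5 and shControl, and between 20264250 and 20367575 for RX-5902 and DMSO. Levels are given as CPM (reads scaled to library size, by trimmed means), and levels between genes as RPKM, which is CPM per kilobase of the exon length in the deposited tables. DDX5 RNA was 166, 166 and 163 CPM in shDDX5 libraries, against 761, 726 and 735 CPM in shControl libraries, which is 4.55-fold lower. In the compound experiment DDX5 was 1103, 1059 and 1020 CPM with RX-5902 and 832, 844 and 832 CPM with DMSO (log2 change 0.31, SE 0.04, adjusted p = 1.47e-08). The library shDDX5 replicate 1 stood apart. Its chi-square per gene against replicates 2 and 3 was 52.5 and 52.7, while the other pairs lay between 1.76 and 6.62, and its mitochondrial share of reads was 10.3%, against 5.19% to 8.09% in the other 11 libraries. The 10 myeloid identity genes were read in every group, and their summed level was 13496 to 15298 CPM in shDDX5 libraries, 4273 to 4637 in shControl libraries, 1566 to 1621 with RX-5902 and 1449 to 1480 with DMSO. Most of the first range was the monocyte lysozyme gene LYZ, at 12506 to 14331 CPM in shDDX5 libraries and 3225 to 3606 CPM in shControl libraries. CD33, MPO, CSF1R, SPI1 and CD4 also had shDDX5 ranges above those of shControl. CD33 was at 112 to 130 CPM in shDDX5 and 62.6 to 65.9 CPM in shControl libraries, and MPO at 70.8 to 75.0 and 38.3 to 40.1 CPM. The remaining genes of that list had shDDX5 ranges below those of shControl. MEIS1 was at 2.81 to 3.43 CPM in shDDX5 and 18.7 to 22.1 CPM in shControl libraries, HOXA9 at 9.22 to 12.2 CPM in shDDX5 and 30.4 to 32.9 CPM in shControl, PTPRC at 104 to 146 CPM in shDDX5 and 223 to 242 CPM in shControl, and FLT3 at 268 to 281 CPM in shDDX5 and 381 to 393 CPM in shControl libraries. With RX-5902, PTPRC was at 495 to 539 CPM, against 248 to 276 CPM with DMSO, while LYZ was at 249.9 to 262 CPM with RX-5902 and 354 to 378 CPM with DMSO, and MPO at 54.5 to 58.7 CPM with RX-5902 and 90.5 to 97.9 CPM with DMSO. MEIS1, HOXA9, SPI1 and CSF1R also had RX-5902 ranges above those of DMSO, CD33 and FLT3 had ranges below them, and CD4 overlapped. The part of these changes, and of those in the lists that follow, in the results below was not tested. Erythroid genes, for which BNIP3L matters as the remover of mitochondria in maturing red cells, summed to at most 0.106 CPM in shDDX5, 0.199 in shControl, 0.144 in RX-5902 and 0.0492 in DMSO libraries, with every globin gene at 0. The B cell list summed to at most 3.36 CPM, with MS4A1 at 0. The T cell list summed to 16.9 to 23.9 CPM in shDDX5, 23.9 to 26.3 in shControl, 50.5 to 53.4 in RX-5902 and 19.9 to 21.3 in DMSO libraries, with CD3G at 0 throughout. The epithelial and packaging cell list summed to 6.99 to 9.11, 10.1 to 11.3, 18.0 to 20.3 and 4.06 to 4.77 CPM in the same order, with NEFL and NEFM at 0 throughout, and the fibroblast list to 4.61 to 7.27, 1.54 to 2.09, 0.952 to 1.39 and 0.394 to 0.580 CPM, with COL3A1, DCN and LUM at 0 throughout.

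All 10 genes passed the filter on low counts in both experiments, with between 119 reads (WIPI1, a DMSO library) and 6588 reads (SQSTM1, an shDDX5 library). In shDDX5 cells 7 of the 10 were higher than in shControl cells at an adjusted p under 0.05 (edgeR quasi-likelihood test over all genes tested) and 0 were lower, with a median log2 change of 0.40. The background was wide: of 14463 genes tested, 56.7% were called, 28.4% higher and 28.3% lower, with a median of -0.000705. With RX-5902, 8 of the 10 were higher and 0 were lower (median 0.76), where 64.1% of 13941 genes were called, 32.2% higher and 31.9% lower, with a median of 0.01. In 9 of the 10 genes every shDDX5 library lay above every shControl library, and in 8 every RX-5902 library lay above every DMSO library. The shares of all genes that did so were 33.1% and 36.8%. SQSTM1, OPTN, GABARAPL1, MAP1LC3B, ULK1 and WIPI1 were called higher in both experiments, as were 10.4% of the 13233 genes tested in both. The 10 genes were chosen with earlier results of these data known, so these counts are no test of autophagy genes as a set. These are bulk libraries, in which more cells of a state and more RNA per cell cannot be told apart.

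**Figure D1:**
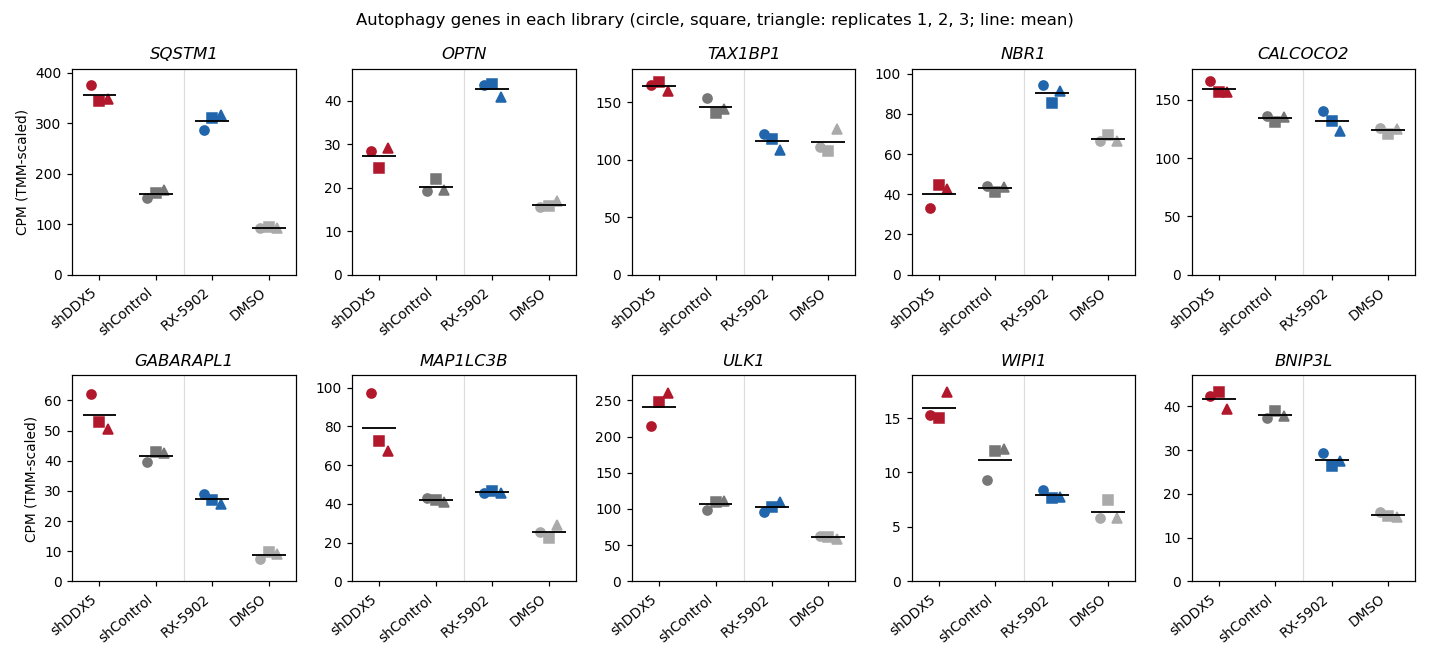
CPM of each of the 10 genes (vertical axis, from 0) in the 12 libraries, by group. Circles, squares and triangles are replicates 1, 2 and 3 and the line is their mean. SQSTM1 shows the groups far apart in both experiments, while the NBR1 points of shDDX5 and shControl overlap.

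SQSTM1 (ENSG00000161011.20, chr5:179806398-179838078, plus strand, GRCh38) encodes p62, the receptor that gathers ubiquitinated proteins and also binds KEAP1. Its RNA was 375, 343 and 348 CPM in shDDX5 libraries, against 152, 162 and 167 CPM in shControl libraries. It was 287, 311 and 316 CPM with RX-5902, against 92.3, 94.4 and 92.3 CPM with DMSO. All 6 libraries of the shDDX5 and RX-5902 groups lay above all of their controls, with wide gaps. The log2 change was 1.13 (SE 0.08, adjusted p = 1.71e-05, 2.18-fold) after knockdown and 1.67 (SE 0.04, adjusted p = 1.11e-25, 3.19-fold) with RX-5902. Among all genes tested, 10.8% were called and at least 2-fold higher after knockdown and 5.16% with RX-5902. SQSTM1 shares 1582 exon bases (21.0% of its exons) with MRNIP and 105 with MGAT4B on the opposite strand. MRNIP had 238 to 326 reads over the 12 libraries, against 1876 to 6588 for SQSTM1, and the strand setting of the counting is not given in the sources used here.

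OPTN (ENSG00000123240.17, chr10:13099449-13138308, plus strand) encodes optineurin, a receptor for bacteria and damaged mitochondria that TBK1 phosphorylates. It was 28.6, 24.5 and 29.1 CPM in shDDX5 libraries, against 19.2, 21.9 and 19.6 CPM in shControl libraries, a narrow gap without overlap. RX-5902 libraries had 43.8, 43.8 and 40.9 CPM and DMSO libraries 15.7, 15.7 and 17.0 CPM, far from overlap. The log2 changes were 0.42 (SE 0.10, adjusted p = 0.00772) after knockdown and 1.37 (SE 0.06, adjusted p = 4.72e-19, 2.59-fold) with RX-5902. Tested against a fold of 1.2 the knockdown value was not called (adjusted p = 0.0576, range over 16 alternatives 5.89e-05 to 0.0576).

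NBR1 (ENSG00000188554.15, chr17:43170481-43211689, plus strand), an evolutionarily old ubiquitin receptor that works with p62, was higher with RX-5902 and not called after knockdown. It had 94.7, 85.7 and 91.6 CPM in RX-5902 libraries and 66.4, 69.6 and 66.5 CPM in DMSO libraries, without overlap (log2 0.39, SE 0.05, adjusted p = 4.99e-09). In shDDX5 libraries it had 33.3, 44.7 and 42.7 CPM and in shControl libraries 44.0, 41.3 and 43.7 CPM, with overlap (log2 -0.11, SE 0.13, adjusted p = 0.470). The low value was shDDX5 replicate 1, and without it the log2 change was 0.02. NBR1 shares 463 exon bases (5.51%) with ENSG00000267002 on the opposite strand, which had 26 to 278 reads.

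TAX1BP1 (ENSG00000106052.14, chr7:27739331-27844564, plus strand) and CALCOCO2 (ENSG00000136436.15, chr17:48831018-48866522, plus strand), which encodes NDP52, are related coiled-coil receptors for bacteria, protein aggregates and mitochondria. TAX1BP1 was 165, 168 and 160 CPM in shDDX5 libraries and 154, 140 and 144 CPM in shControl libraries (log2 0.15, SE 0.08, adjusted p = 0.139). These groups did not overlap, and without shDDX5 replicate 1 the value was 0.16 with an adjusted p of 0.00491 (range over 16 alternatives 0.00491 to 0.831). With RX-5902 it was 123, 118 and 108 CPM, against 111, 107 and 127 CPM with DMSO, with overlap (log2 -0.02, SE 0.05, adjusted p = 0.731). TAX1BP1 shares 415 exon bases (4.53%) with JAZF1 on the opposite strand, which had 81 to 149 reads. CALCOCO2 was 166, 156 and 157 CPM in shDDX5 libraries and 136, 131 and 135 CPM in shControl libraries, without overlap (log2 0.23, SE 0.07, adjusted p = 0.0264). That call was lost when any 1 library other than shDDX5 replicate 1 was left out (adjusted p 0.0577 to 0.142, range over 16 alternatives 0.000129 to 0.526). It was 140.0, 132 and 124 CPM with RX-5902 and 126, 120.3 and 125 CPM with DMSO, with overlap (log2 0.05, SE 0.04, adjusted p = 0.291).

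BNIP3L (ENSG00000104765.16), also called NIX, sits on the outer mitochondrial membrane and binds ATG8 proteins directly. RX-5902 libraries had 29.3, 26.3 and 27.6 CPM and DMSO libraries 15.8, 14.9 and 14.7 CPM, without overlap (log2 0.83, SE 0.07, adjusted p = 1.19e-12, 1.78-fold). After knockdown it had 42.4, 43.3 and 39.3 CPM in shDDX5 libraries and 37.4, 38.9 and 37.8 CPM in shControl libraries. Those groups were separated by less than 1 CPM and the change was not called (log2 0.11, SE 0.08, adjusted p = 0.260).

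Of the ATG8 genes, GABARAPL1 (ENSG00000139112.11, chr12:10212458-10223128, plus strand) encodes a GABARAP-family protein and MAP1LC3B (ENSG00000140941.14, chr16:87383953-87404779, plus strand) encodes LC3B, the usual marker protein of autophagosomes. GABARAPL1 was 28.97, 27.0 and 25.6 CPM with RX-5902, against 7.58, 9.83 and 9.24 CPM with DMSO, so that the groups lay far apart (log2 1.58, SE 0.08, adjusted p = 1.4e-17, 2.98-fold). After knockdown it was 62.3, 52.9 and 50.5 CPM in shDDX5 libraries and 39.7, 42.9 and 42.4 CPM in shControl libraries, without overlap (log2 0.39, SE 0.09, adjusted p = 0.00840). Without shControl replicate 1 the adjusted p of the knockdown value was 0.0510 at a log2 change of 0.34, and against a fold of 1.2 it was 0.0814, in a range over 16 alternatives of 4.48e-05 to 0.0814. MAP1LC3B was higher in both experiments. It was 97.4, 72.2 and 67.3 CPM in shDDX5 libraries, against 43.1, 41.8 and 41.2 CPM in shControl libraries (log2 0.89, SE 0.13, adjusted p = 0.000634, 1.85-fold), with shDDX5 replicate 1 above the other two and a value of 0.72 without it. With RX-5902 it was 45.4, 46.8 and 45.6 CPM, against 25.4, 22.3 and 29.1 CPM with DMSO (log2 0.80, SE 0.07, adjusted p = 1.67e-12, 1.75-fold). Neither pair of groups overlapped. Of the 50-base words in MAP1LC3B transcripts, 4.82% also occur in MAP1LC3B2, which had 0 to 17 reads per library. MAP1LC3B shares 60 exon bases (1.19%) with FBXO31 on the opposite strand, which had 360 to 663 reads.

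ULK1 (ENSG00000177169.10, chr12:131894622-131923150, plus strand) encodes the kinase that starts autophagosome formation. It was 215, 248 and 261 CPM in shDDX5 libraries, against 98.9, 109 and 111 CPM in shControl libraries, without overlap (log2 1.16, SE 0.11, adjusted p = 5.07e-05, 2.24-fold). It was 95.7, 103 and 109 CPM with RX-5902, against 62.3, 60.8 and 59.0 CPM with DMSO, again without overlap (log2 0.72, SE 0.05, adjusted p = 5.78e-15, 1.65-fold). WIPI1 (ENSG00000070540.13, chr17:68420948-68457513, minus strand) encodes a PI3P-binding propeller protein of the early autophagosome and had the fewest reads of the 10. It was 15.3, 15.0025 and 17.4 CPM in shDDX5 libraries and 9.33, 12.0 and 12.1 CPM in shControl libraries (log2 0.50, SE 0.13, adjusted p = 0.0110). With RX-5902 it was 8.41, 7.61 and 7.74 CPM, against 5.86, 7.47 and 5.85 CPM with DMSO (log2 0.27, SE 0.11, adjusted p = 0.0302). Neither pair of WIPI1 groups overlapped, but the RX-5902 call was lost in 7 of 16 alternatives (adjusted p 0.00644 to 0.425 over all 16), among them without RX-5902 replicate 1 (0.105), DMSO replicate 1 (0.154) or DMSO replicate 3 (0.146). WIPI1 also shares 829 exon bases (24.4%) with ARSG on the opposite strand, which had 75 to 238 reads, so its values are uncertain.

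**Figure D2:**
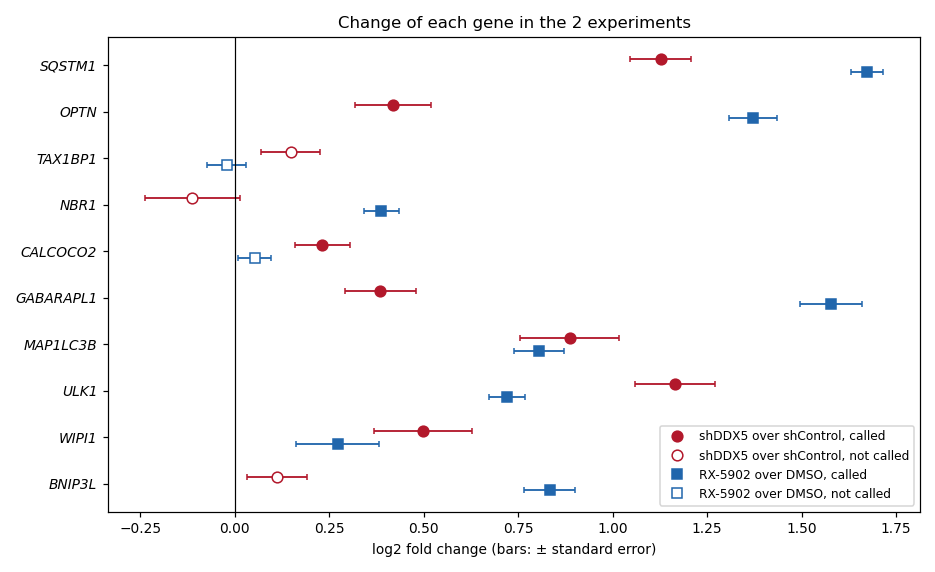
Log2 fold change of each gene (horizontal axis, bars ± SE) for shDDX5 over shControl (circles) and RX-5902 over DMSO (squares), filled where called at an adjusted p under 0.05. OPTN, GABARAPL1 and BNIP3L lie further right with RX-5902, and ULK1 lies further right after knockdown.

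Whether the changes differed between the experiments was tested in 1 fit of all 12 libraries, as the shDDX5 minus shControl change less the RX-5902 minus DMSO change. Of the 10 genes, 5 had a negative difference, with the larger change under RX-5902, and 1 a positive difference, with the larger change after knockdown. Of all 15386 genes, 52.7% were called, 28.6% with a negative and 24.1% with a positive difference. These all-gene shares count the sign only, whichever change was larger. The difference was -1.21 for GABARAPL1 (SE 0.14, adjusted p = 7.34e-06), -0.97 for OPTN (SE 0.12, adjusted p = 1.04e-05), -0.74 for BNIP3L (SE 0.10, adjusted p = 2.04e-05), -0.56 for SQSTM1 (SE 0.09, adjusted p = 0.000151) and -0.52 for NBR1 (SE 0.13, adjusted p = 0.00352). For ULK1 it was 0.42 (SE 0.11, adjusted p = 0.00646), and this call was lost with scaling by library totals (0.102) and against a fold of 1.2 (0.0643), in a range over 21 alternatives of 6.19e-08 to 0.102. MAP1LC3B (0.07, SE 0.17, adjusted p = 0.773), WIPI1 (0.21, SE 0.18, adjusted p = 0.350), CALCOCO2 (0.16, SE 0.09, adjusted p = 0.143) and TAX1BP1 (0.15, SE 0.11, adjusted p = 0.249) were not called, and CALCOCO2 was called without shDDX5 replicate 1 (adjusted p = 0.0386, range over 21 alternatives 0.00423 to 0.812). Knockdown lasted 96 hours with a virus and the compound acted for 6 hours, so agent, time and handling cannot be told apart in this difference.

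Per length, SQSTM1 was the most abundant of the 10 in shDDX5 (47.1 ± 2.26 RPKM, SD, n = 3), shControl (21.3 ± 1.04) and RX-5902 libraries (40.4 ± 2.05), and came after CALCOCO2 and TAX1BP1 in DMSO libraries (12.3 ± 0.158). There CALCOCO2 had 14.9 ± 0.358 RPKM and TAX1BP1 12.5 ± 1.14 RPKM, the range of which overlapped that of SQSTM1. ULK1 ranked 2 in shDDX5 libraries (31.7 ± 3.10 RPKM), 4 in shControl (13.96 ± 0.849), 3 with RX-5902 (13.5 ± 0.895) and 5 with DMSO (7.97 ± 0.212). WIPI1 was last in every group, at 4.68 ± 0.387, 3.27 ± 0.460, 2.33 ± 0.125 and 1.88 ± 0.275 RPKM in shDDX5, shControl, RX-5902 and DMSO libraries, and its range overlapped that of NBR1 in shDDX5 and of GABARAPL1 in DMSO libraries. Other neighbours in the order whose ranges overlapped were TAX1BP1 and MAP1LC3B, MAP1LC3B and GABARAPL1, and OPTN and NBR1 in shDDX5 libraries, CALCOCO2 and TAX1BP1 in shControl, ULK1 and TAX1BP1, and GABARAPL1 and BNIP3L, with RX-5902, and NBR1 and ULK1 with DMSO. Between the experiments' controls, GABARAPL1 stood at 10.3 ± 0.422 RPKM in shControl and 2.19 ± 0.288 RPKM in DMSO libraries, and BNIP3L at 9.17 ± 0.192 and 3.66 ± 0.146 RPKM. NBR1 ran the other way, at 5.12 ± 0.179 RPKM in shControl and 8.03 ± 0.216 RPKM in DMSO libraries. Virus, time in culture and handling differ between those controls and cannot be told apart, and no test was made. The length counts all annotated exons of a gene rather than the transcripts present, and the order between genes depends on it.

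The mix of receptor RNA differed between groups. Of the summed RPKM of SQSTM1, OPTN, TAX1BP1, NBR1 and CALCOCO2, SQSTM1 made up 49.9% ± 1.07 in shDDX5 and 34.1% ± 1.51 in shControl libraries, and 45.9% ± 2.41 with RX-5902 and 24.2% ± 0.829 with DMSO (SD, n = 3). The ranges of each pair of groups did not overlap. OPTN made up 5.65% ± 0.481 in shDDX5 and 6.30% ± 0.519 in shControl libraries, with overlap, and 9.46% ± 0.315 with RX-5902 and 6.15% ± 0.150 with DMSO, without. The summed level of the 5 was 94.4 ± 2.47 RPKM in shDDX5 and 62.4 ± 0.751 RPKM in shControl libraries, and 88.1 ± 0.606 RPKM with RX-5902 and 51.0 ± 1.25 RPKM with DMSO. These shares depend on the same exon lengths and are given as a description of RNA, with no test.

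**Figure D3:**
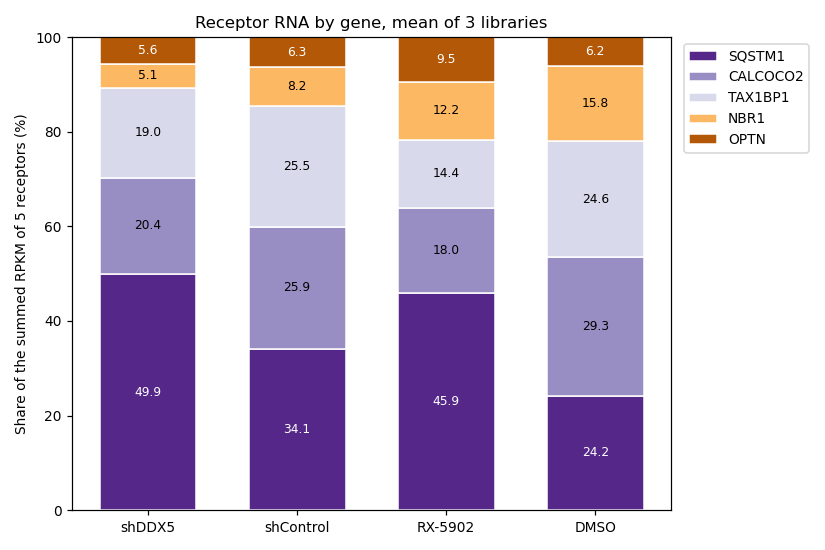
Share of the summed RPKM of 5 receptor genes (vertical axis, percent, mean of 3 libraries) in each group. The SQSTM1 block is 49.9% in shDDX5 and 34.1% in shControl libraries, and 45.9% with RX-5902 and 24.2% with DMSO.

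The 5 protein-coding genes whose pattern over the 12 libraries lay closest to SQSTM1 were chosen from 9463 with a mean of at least 5 CPM, by the root mean square difference of log2 CPM centred on each gene's mean. They were the ubiquitin ligase gene TRIM69 (distance 0.157), TNFAIP8L1 (0.161), the receptor gene LRP10 (0.179), the Wnt receptor gene FZD2 (0.179) and PDLIM7 (0.186), which encodes a PDZ and LIM domain protein. LRP10 averaged 142 CPM in shDDX5 and 62.6 CPM in shControl libraries, and 101 CPM with RX-5902 and 42.9 CPM with DMSO. Within the 10 genes, MAP1LC3B was closest to SQSTM1 (0.365, rank 64) and NBR1 farthest (0.958, rank 6220). Being chosen for likeness, these genes carry no test.

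The rest of the pathway was read from 9 lists with 99 further genes, of which 90 were tested in both experiments. After knockdown 36 of 90 were higher and 20 lower (median log2 0.17), and with RX-5902 41 of 91 were higher and 15 lower (median 0.13), beside 28.4% higher and 28.3% lower, and 32.2% higher and 31.9% lower, of all genes. The same shares of all genes are the background for the counts of each single list below, several of which lie near them. No share is set apart from the background by a test. The lists, too, were chosen with earlier results of these data known.

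Most other ATG8 genes had few reads. MAP1LC3A and MAP1LC3C had 0 to 2 reads per library and MAP1LC3B2 had 0 to 17, so none of the 3 was tested. GABARAPL2 (GATE-16) was 80.4, 54.2 and 51.2 CPM in shDDX5 and 51.6, 52.0 and 52.6 CPM in shControl libraries, with overlap and shDDX5 replicate 1 apart from the rest (log2 0.23, SE 0.15, adjusted p = 0.240). It was 48.1, 47.7 and 46.5 CPM with RX-5902 and 41.4, 42.3 and 42.8 CPM with DMSO (log2 0.13, SE 0.05, adjusted p = 0.0226), a call lost without RX-5902 replicate 2 (0.0765), DMSO replicate 1 (0.110) or DMSO replicate 2 (0.0847), with a range over 16 alternatives that reached 1. GABARAP, with 31 to 76 reads per library, was not called in either experiment (log2 0.21, SE 0.16, after knockdown and 0.24, SE 0.19, with RX-5902). Without shDDX5 replicate 2, MAP1LC3B2 entered the test and was the 1 called of this list, with 50-base words shared with MAP1LC3B.

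Of the other receptors, 4 of 17 tested were higher and 5 lower after knockdown (median 0.03), and 6 of 18 were higher and 4 lower with RX-5902 (median 0.12). The ferritin receptor gene NCOA4 was higher in both, at 0.53 and 0.21 on the log2 scale, as was TOLLIP, a ubiquitin-binding adaptor (0.68 and 0.27). The mitochondrial receptor gene BCL2L13 was higher after knockdown (0.75) and not called with RX-5902 (0.09). CALCOCO1, a paralogue of CALCOCO2 and a receptor for endoplasmic reticulum, was 45.0, 47.5 and 47.4 CPM with RX-5902 and 23.3, 27.1 and 23.5 CPM with DMSO (log2 0.88, SE 0.06, adjusted p = 1.48e-14), and was not called after knockdown (-0.22). NUFIP1, a ribosome receptor, was lower in both (-0.51 and -1.19), at 15.6, 15.5 and 14.7 CPM with RX-5902, against 34.4, 31.0 and 36.5 CPM with DMSO. The other 4 lower after knockdown were BNIP3 (-0.80, 7 to 34 reads per library over both experiments), PHB2 (-0.49), SEC62 (-0.34) and RETREG2 (-0.27). With any 1 library other than shDDX5 replicate 1 left out, 2 or 3 of this list were lower after knockdown, and without shDDX5 replicate 1 there were 7.

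In the initiation complex, 3 of 4 tested partners of ULK1 were lower after knockdown and 1 was higher. Of these, the scaffold gene RB1CC1 (FIP200) fell by 0.85, AMBRA1 by 0.51 and ATG13 by 0.44, and ATG101 was higher by 0.36, a call lost without shControl replicate 1. The list's median was -0.47. RB1CC1 was 22.7, 37.8 and 34.2 CPM in shDDX5 libraries and 59.1, 55.3 and 54.5 CPM in shControl libraries, without overlap. With RX-5902 it was 109, 97.4 and 95.7 CPM, against 65.4, 63.6 and 71.2 CPM with DMSO (log2 0.56), and it was the only 1 of the 4 called there (median 0.05). In the lipid kinase complexes, BECN1, which encodes Beclin 1, was 36.3, 36.3 and 38.7 CPM in shDDX5 libraries and 65.6, 69.2 and 70.7 CPM in shControl libraries (log2 -0.90, SE 0.08, adjusted p = 4.72e-05), and was not called with RX-5902 (0.06). UVRAG, its partner in late steps, was higher after knockdown (0.45), and these were the 2 called of 7 (median -0.20). Without shDDX5 replicate 1 the counts were 2 higher and 3 lower, and without shDDX5 replicate 2 there were 2 lower. With RX-5902 3 were higher and 1 lower (median 0.09), with RUBCN, a negative regulator, at 0.72, the lipid kinase gene PIK3C3 at 0.29, ATG14 at 0.29 and PIK3R4 at -0.36.

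Genes of PI3P effectors and membrane supply were higher in 6 of 9 cases and lower in 2 after knockdown (median 0.58), and higher in 8 of 9 and lower in 0 with RX-5902 (median 0.50). The lipid scramblase genes VMP1 and TMEM41B were higher in both, at 0.66 and 0.50 and at 0.99 and 0.44 on the log2 scale. The lipid transfer gene ATG2A was higher with RX-5902 (0.87) and not called after knockdown (0.21). ATG9A, the membrane protein gene of seed vesicles, was higher with RX-5902 (0.83). Its shDDX5 and shControl libraries overlapped. The knockdown value of 0.68 had an adjusted p of 0.0486, and the call was lost when any 1 library other than shDDX5 replicate 1 was left out (0.110 to 0.147, the highest over 16 alternatives). WIPI2, the paralogue of WIPI1 that recruits ATG16L1, was 45.8, 42.9 and 44.9 CPM in shDDX5 libraries and 93.0, 95.2 and 95.6 CPM in shControl libraries (log2 -1.11, SE 0.07, adjusted p = 1.26e-05). With RX-5902 it was 116, 122 and 119 CPM, against 96.7, 93.1 and 93.7 CPM with DMSO (log2 0.30, SE 0.04, adjusted p = 1.55e-07). WIPI1 and WIPI2 thus stood on opposite sides of 0 after knockdown. ATG2B was the other gene lower there (-0.88).

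In the conjugation machinery, 6 of 11 were higher and 3 lower after knockdown (median 0.27), and 3 were higher and 2 lower with RX-5902 (median -0.02). The ATG8 proteases differed among themselves after knockdown, with ATG4C at -1.15 and ATG4A at -0.74, and ATG4B at 0.27 and ATG4D at 0.34 (adjusted p = 0.0469 for ATG4D). ATG12, the ubiquitin-like partner of ATG5, was higher after knockdown (0.52) and ATG16L2 with RX-5902 (0.69). Without any 1 shControl library, 3 of the list were higher after knockdown, and ATG4B and ATG3 were among the calls lost. Without RX-5902 replicate 3 or DMSO replicate 2, 1 was lower with RX-5902. In the fusion list, 4 of 14 were higher and 1 lower after knockdown (median 0.10), and 5 were higher and 5 lower with RX-5902 (median 0.09). The SNARE gene SNAP29 was higher after knockdown (0.61) and the SNARE gene VAMP8 was lower with RX-5902 (-0.62), while the adaptor gene PLEKHM1 was higher in both (0.47 and 0.80). The knockdown call of PLEKHM1 was lost when any 1 library other than shDDX5 replicate 1 was left out. Without shDDX5 replicate 1 the knockdown counts were 9 higher and 2 lower, and without shControl replicate 2 or 3 none was lower. With RX-5902, 3 were lower without RX-5902 replicate 1, RX-5902 replicate 2, DMSO replicate 1 or DMSO replicate 2.

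Among kinases and ligases of selective autophagy, 4 of 8 were higher and 2 lower after knockdown (median 0.18), and 5 were higher and 1 lower with RX-5902 (median 0.24). PINK1, the kinase gene of damaged mitochondria, was 16.9, 14.8 and 17.7 CPM in shDDX5 libraries and 8.17, 9.56 and 11.3 CPM in shControl libraries (log2 0.75, SE 0.14, adjusted p = 0.00197). It was 8.17, 7.42 and 8.13 CPM with RX-5902 and 4.23, 4.92 and 4.88 CPM with DMSO (log2 0.72, SE 0.11, adjusted p = 1.1e-06). TANK, an adaptor of TBK1, was higher in both (0.54 and 0.23), and the ligase gene HUWE1 was higher with RX-5902 (0.40). Without shControl replicate 2 or 3, 2 were higher after knockdown. The lower ones were MARCHF5 (-0.99) and TBKBP1 (-0.26), and only 1 of the list was lower without shDDX5 replicate 2 or any 1 shControl library. The 1 lower with RX-5902, MUL1 (-0.14), was lost without RX-5902 replicate 1, RX-5902 replicate 2, DMSO replicate 2 or DMSO replicate 3.

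Of transcription factors and upstream kinases, 10 of 18 were higher and 3 lower after knockdown (median 0.31), and 9 were higher and 2 lower with RX-5902 (median 0.23). TFE3, an activator of lysosome and autophagy genes, was higher in both: 68.1, 61.4 and 69.3 CPM in shDDX5 and 44.2, 43.0 and 42.2 CPM in shControl libraries (log2 0.60), and 49.7, 51.3 and 53.3 CPM with RX-5902 and 26.5, 24.8 and 27.1 CPM with DMSO (log2 0.94). Its relative TFEB was 13.1, 9.33 and 11.3 CPM in shDDX5 and 14.7, 17.7 and 17.8 CPM in shControl libraries (log2 -0.59, SE 0.14, adjusted p = 0.00615). With RX-5902 TFEB was 34.4, 36.2 and 36.7 CPM, against 13.9, 14.7 and 13.8 CPM with DMSO (log2 1.30, SE 0.06, adjusted p = 3.76e-18). NFE2L2, which encodes NRF2, was higher in both (0.55 and 0.58). So were the nutrient-sensing genes RRAGD (1.70 and 0.92), at 0.725 to 9.56 CPM, and FNIP1 (1.26 and 0.45), and ZKSCAN3, a repressor of autophagy genes (1.10 and 0.76). With RX-5902 the lower genes were ATF4 (-0.15) and PRKAB1 (-0.11). There were 5 lower without DMSO replicate 3, and 1 without RX-5902 replicate 2, RX-5902 replicate 3 or DMSO replicate 1.

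**Figure D4:**
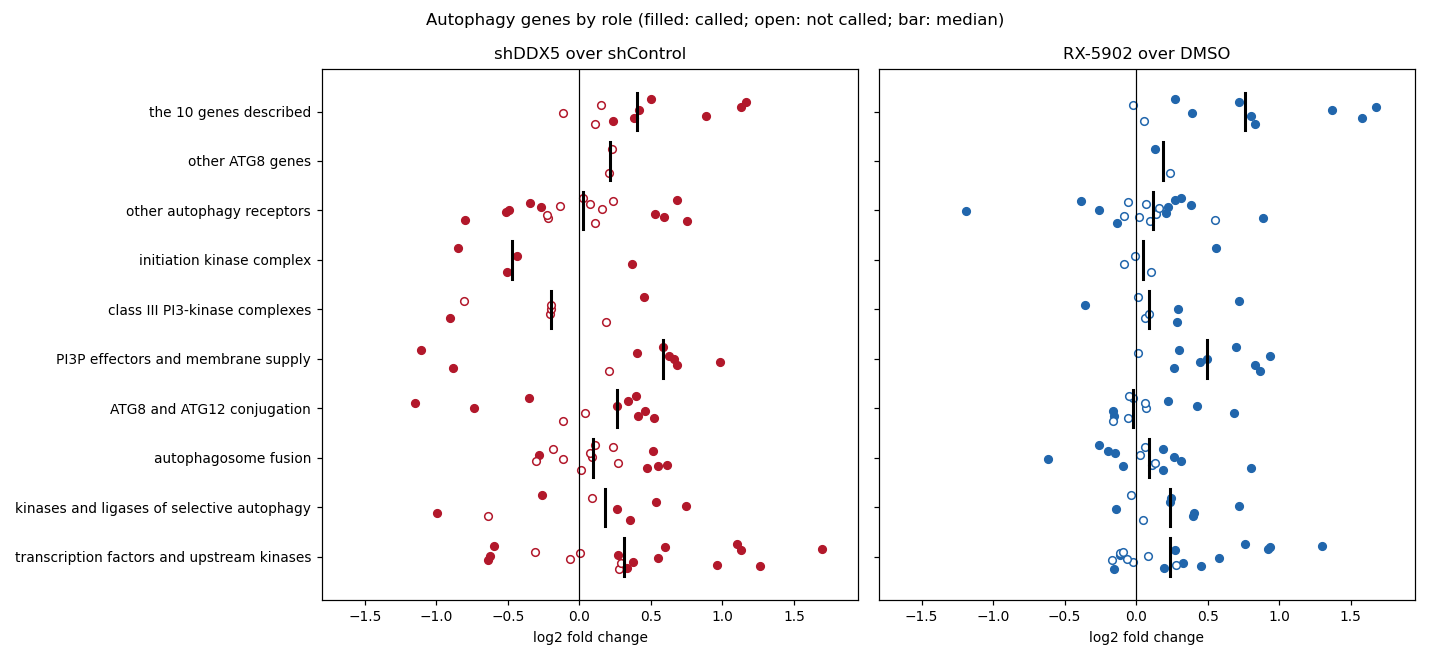
Log2 fold change (horizontal axis) of each tested gene of the 10 described and of 9 other autophagy lists, for shDDX5 over shControl on the left and RX-5902 over DMSO on the right. Filled points were called, open points were not, and the bar is the list's median. The initiation list has a median of -0.47 after knockdown and 0.05 with RX-5902.

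Across the 90 other genes tested in both experiments, 12 were called in opposite directions, beside 16.0% of all 13233 genes. Lower after knockdown and higher with RX-5902 were TFEB, RB1CC1, WIPI2, MARCHF5, ATG2B and RETREG2. Higher after knockdown and lower with RX-5902 were ATG3, ATG16L1, RAB7A, VPS33A, MUL1 and PRKAB1, whose RX-5902 values lay between -0.20 and -0.09. RAB7A (0.55 and -0.09), VPS33A (0.52 and -0.20) and MUL1 (0.26 and -0.14) overlapped between RX-5902 and DMSO libraries. Several of these calls were lost without 1 library. They were RETREG2 after knockdown without any 1 library other than shDDX5 replicate 1, MUL1 and PRKAB1 after knockdown without shDDX5 replicate 3 or any 1 shControl library, and ATG3 after knockdown without any 1 shControl library. With RX-5902 they were RAB7A without RX-5902 replicate 2, DMSO replicate 1 or DMSO replicate 2, VPS33A without RX-5902 replicate 1, RX-5902 replicate 2 or DMSO replicate 1, MUL1 without RX-5902 replicate 1, RX-5902 replicate 2, DMSO replicate 2 or DMSO replicate 3, ATG16L1 without RX-5902 replicate 3 or DMSO replicate 2, and PRKAB1 without RX-5902 replicate 2, RX-5902 replicate 3 or DMSO replicate 1. None of the 10 receptor, ATG8 and early-acting genes was called in opposite directions.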

How the data were processed

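RNA was measured by sequencing in 12 MOLM-14 libraries, 3 in each of 4 groups taken from the labels, which call the replicates biological. The authors deposited raw read counts per gene, 1 table per experiment, with no column of other samples. Per the submitters' processing notes, the build was GRCh38.p13 and the tools were DESeq2 1.46.0 in R 4.4.2, featureCounts (Subread 2.0.3), the STAR 2.7.9a aligner, Trim Galore 0.6.7, and Picard 2.8.0. The strand setting, annotation release and handling of multi-mapping reads are not given in the sources used here. A single gene, broken across 3 lines in each file, was put back together. Symbols were matched by versioned identifier for 59984 genes and without the version for 1819, and 103 had none.

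The 6 libraries of an experiment made up 1 fit in edgeR 4.0.16 (R 4.3.3, limma 3.58.1): TMM scaling, filterByExpr, quasi-likelihood F test, two-sided, Benjamini-Hochberg adjustment over all genes tested, called at an adjusted p under 0.05. SE is the log2 change divided by the square root of F. CPM and RPKM used TMM factors over all 12 libraries, so their ratios differ slightly from the fitted changes. Alternatives included DESeq2 1.42.0. Tables and figures used Python 3.11.15, pandas 2.3.3 and matplotlib 3.10.9. The labels do not say whether replicate numbers pair samples, and no pairing was seen. Correlations of same-numbered deviations lay between -0.0926 and 0.0452, and those of differently numbered ones between -0.035 and 0.0988.

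The fit was tested on simulated data with 200 changed genes, the same replicate spread set for every gene and no library set apart. In the data themselves 56.7% of genes were called after knockdown and 64.1% with RX-5902, and shDDX5 replicate 1 stood apart. The simulated rates therefore do not give how often such changes were found in these experiments. Changes of 0.5, 1 and 1.5 on the log2 scale were recovered in 45.3%, 90.8% and 100% of cases for the knockdown design (14427 genes), in 47.7%, 90.8% and 95.5% for the compound design (13905 genes) and in 17.5%, 63.1% and 88.1% for the difference (14931 genes).

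The 10 genes, the 9 lists and the marker lists were chosen with earlier results of these data known. Outside the 10, genes were named if among the 3 called with the smallest p of a list in an experiment, or nearest to SQSTM1. Of these, WDFY3 (log2 change 0.31 with RX-5902) and YKT6 (-0.26 with RX-5902) are given only here, and neither was called after knockdown. Others named to spell out a count or an opposite call, and the marker genes singled out, were picked after their values were seen. A planned description of protein motifs was not made, since no protein table was used here.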

Additional observations from a re-analysis of the deposited data

Results flagged for a closer look

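By an edgeR test of the difference over all 12 libraries, the change after knockdown and the change with RX-5902 differed for 6 of the 10 genes and for 54 of 92 other listed autophagy genes tested (27 higher, 27 lower), beside 52.7% of all genes. Values are given for those 6 and for the 12 genes called in opposite directions in the experiments. Each value is the knockdown log2 change minus the compound log2 change, and n is 3 libraries per group. The difference was -0.56 for SQSTM1 (adjusted p = 0.000151), -0.97 for OPTN (1.04e-05), -0.52 for NBR1 (0.00352), -1.21 for GABARAPL1 (7.34e-06), -0.74 for BNIP3L (2.04e-05) and 0.42 for ULK1 (0.00646). Over 21 alternatives the difference ran from -0.70 to -0.34 for SQSTM1, from -1.10 to -0.84 for OPTN, from -0.64 to -0.28 for NBR1, from -1.35 to -1.09 for GABARAPL1, from -0.87 to -0.66 for BNIP3L and from 0.30 to 0.65 for ULK1.

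Genes with calls of opposite direction in the experiments had differences of -1.91 for TFEB (adjusted p = 1.61e-07), -1.43 for RB1CC1 (1.93e-05), -1.42 for WIPI2 (6.38e-09), -1.42 for MARCHF5 (1.35e-07), -1.16 for ATG2B (0.000287) and -0.51 for RETREG2 (0.000363). With the other sign, the difference was 0.70 for VPS33A (adjusted p = 0.00209), 0.62 for RAB7A (0.000218), 0.60 for ATG3 (0.00453), 0.55 for ATG16L1 (0.000147), 0.39 for MUL1 (0.00489) and 0.37 for PRKAB1 (0.00326). Against a fold of 1.2 the differences of MUL1 and PRKAB1 were not called, and PRKAB1 was not called with library totals either. Agent, exposure time and infection change together between the experiments and cannot be told apart.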

How the results depend on the processing

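The number of the 10 genes called ran from 4 to 8 over the alternatives after knockdown (5 to 8 with 1 library left out), from 7 to 9 with RX-5902 (7 to 8) and from 5 to 8 for the difference (6 to 7), against 7, 8 and 6. Tested against a fold of 1.2, 4 of the 10 genes and 6378 of all 14463 genes were called after knockdown. With RX-5902 that test called 7 of the 10 and 5190 of all 13941 genes, against 8943 in the main test. The counts of all genes ran from 6676 to 10645 with 1 library left out after knockdown, from 8413 to 8691 with RX-5902 and from 7461 to 9537 for the difference. Signs changed for values that were not called: NBR1 after knockdown was 0.021 with a length offset, 0.018 with that offset and the replicate block, and 0.015 without shDDX5 replicate 1 (-0.20 to 0.015 with 1 library left out). TAX1BP1 with RX-5902 was 0.040 with library totals, 0.016 in 1 fit of all 12 libraries, 0.030 without RX-5902 replicate 3 and 0.045 without DMSO replicate 3 (-0.083 to 0.045 with 1 library left out). CALCOCO2 with RX-5902 was -0.018 with the length offset, -0.019 with offset and block, and 0.12 with library totals, where it was called (adjusted p = 0.0254, range over 16 alternatives 0.0254 to 1). The MAP1LC3B difference was -0.077 with library totals, -0.092 without shDDX5 replicate 1 and -0.025 without DMSO replicate 3 (-0.092 to 0.19 with 1 library left out). The cause was not tested. Library totals moved the median difference of all genes to -0.18 and the length offset moved it to 0.07, from -0.05. With the offset TAX1BP1 (0.42) and CALCOCO2 (0.41) were called in the difference, and the NBR1 difference had an adjusted p of 0.0511 with offset and block (range over 21 alternatives 3.61e-05 to 0.0511).

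No pairing of the samples by replicate number was seen. With the replicate number as a block, 7592 genes were called after knockdown, 8696 with RX-5902 and 7626 for the difference, and 6, 8 and 6 of the 10 genes. In the labels such samples share only a number. WIPI1 had the fewest reads of the 10 (119 to 330). Its SE was the largest of the 10 with RX-5902 (0.11) and in the difference (0.18). After knockdown MAP1LC3B had the largest (0.131), beside 0.129 for WIPI1.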
